A study of Mus musculus with 12 samples.

Results

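The transcriptomes of 3 bone marrow-derived macrophage (BMDM) libraries headed LPS+ tlr4f/f-lysM-cre were compared with those of 3 libraries headed LPS- tlr4f/f-lysM-cre. These 6 libraries, of 12 in the series, were chosen by their column headings, with earlier results of these data known. They are called the LPS+ cre and LPS- cre libraries here after those headings. BMDMs of C57BL/6 mice were grown from bone marrow with M-CSF at 50 ng/mL for 7 days. Per the labels, LPS- cre cells were untreated and LPS+ cre cells received LPS at 1 µg/mL for 6 hours, and both carried the tlr4f/f-lysM-cre genotype. All 12 libraries came from mice with a floxed Tlr4 gene, and the other 6 (3 headed LPS- tlr4f/f and 3 headed LPS+ tlr4f/f) lacked the lysM-cre allele by their labels. Cre driven from the lysozyme M gene (Lyz2) acts in macrophages, monocytes and neutrophils, so the model removes Tlr4 from myeloid cells and not from other cells of a culture. The labels do not say whether the 3 libraries of a group came from separate mice, so p-values measure only the spread between these libraries. The age and sex of the mice are not given in the labels.

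TLR4 is the receptor for LPS. With the co-receptors CD14 and MD-2 it signals through the adaptors MyD88 and TRIF, which switch on NF-kB target genes and, by way of IRF3, interferon beta. Interferon beta then acts back on the same macrophages through its receptor and STAT factors, and so drives a second set of genes that includes the antiviral genes and the guanylate-binding proteins.

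The counts of 3 marker genes went against the column headings, so each direction below is given for the libraries as headed. Tlr4, the floxed gene (chr4:66827584-66930284, plus strand, GRCm38), had 4367, 3041 and 3739 counts in the LPS- cre libraries and 1191, 891 and 1117 counts in the LPS+ cre libraries. In the libraries without the cre heading it had 4486, 9136 and 6449 counts under LPS- and 1484, 1086 and 1412 counts under LPS+. Tlr4 was thus high in all LPS- headed libraries and low in all LPS+ headed libraries, whatever the cre heading. Counts for a gene include the parts of Tlr4 outside the floxed segment. The fall in the LPS+ cre libraries was 4.26-fold (log2 fold change -2.09, SE 0.13, adjusted p = 0.000937 by edgeR, n = 3 against 3).

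CPM here are counts scaled to the library total multiplied by a TMM factor of edgeR, from 1 TMM scaling of all 12 libraries. They are thus not counts scaled to the library total alone. Lyz2, in whose locus Cre sits (chr10:117277331-117282321, minus strand), measured 5948, 9487 and 7319 CPM in the LPS- cre libraries. Lyz2 measured 75.6, 58.6 and 52.6 CPM in the LPS+ cre libraries. Its fall was 121-fold (log2 fold change -6.92, SE 0.28, adjusted p = 0.000255 by edgeR). Lyz2 was at 10.3, 14.3 and 10.7 CPM under the heading LPS+ tlr4f/f, which by label carries no lysM-cre allele. Il1b, the interleukin 1 beta gene, measured 8217, 1639 and 2813 CPM in the LPS- cre libraries, 2615, 2686 and 2498 CPM in the LPS+ cre libraries, and at most 6.92 CPM in all 6 libraries without the cre heading. Il1b was thus high in both cre-headed groups, the untreated one included, and the groups overlapped (log2 fold change -0.70, SE 0.55, adjusted p = 0.387 by edgeR).

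**Figure D1:**
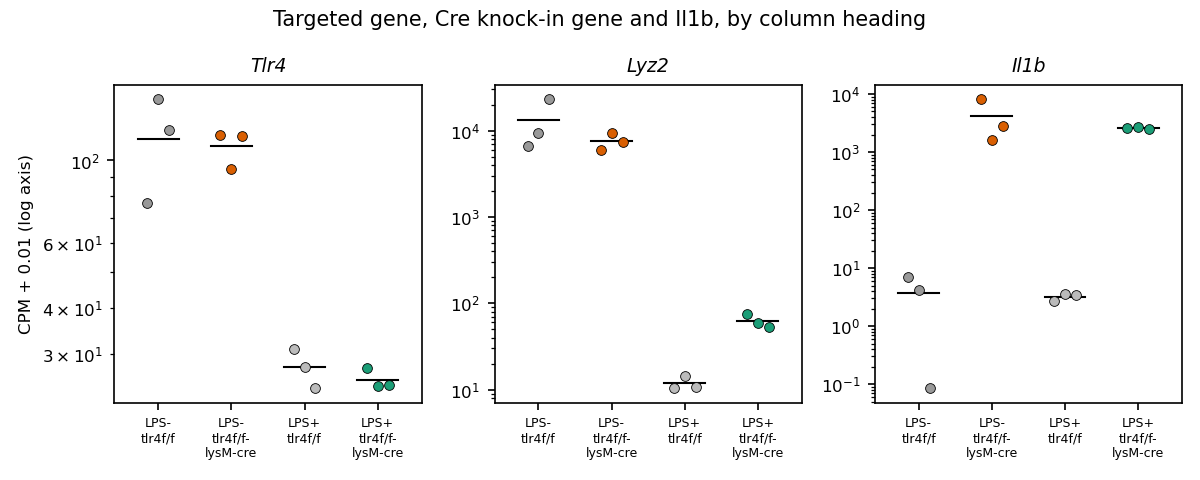
CPM (plus 0.01, log axis) of Tlr4, Lyz2 and Il1b in the 12 libraries by column heading; points are libraries and bars are means of 3. Tlr4 and Lyz2 were low in both LPS+ headed groups, and Il1b was high in both cre-headed groups.

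Each result therefore has 2 readings. As the columns are headed, the comparison is LPS against no LPS in Tlr4-deleted BMDMs, and a gene lower in the LPS+ cre libraries fell with LPS. If the LPS- cre heading was exchanged with the heading LPS+ tlr4f/f, the LPS- cre columns would hold LPS-treated tlr4f/f cells. The same gene would then be lower in LPS-treated Tlr4-deleted BMDMs than in LPS-treated tlr4f/f BMDMs, and the comparison would be the effect of Tlr4 deletion under LPS. The second reading was prompted by the counts of Tlr4, Lyz2 and Il1b, so these genes are no independent support for it.

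Depth was similar in the 6 libraries, with 38274326 to 51054086 counts over genes. The 2 groups differed in spread: the biological coefficient of variation, edgeR's estimate of the spread of a gene between libraries, was 40.3% among the LPS- cre libraries and 8.94% among the LPS+ cre libraries. LPS- cre replicate 1 stood apart in complement C1q, with C1qa at 5.87 CPM against 892 and 825 CPM in the other replicates of its group. LPS- cre replicate 2 stood apart in collagen genes, described below. Macrophage markers were present in all 6 libraries. Csf1r, the M-CSF receptor, measured 1703, 1383 and 1039 CPM in the LPS- cre and 1628, 1718 and 1788 CPM in the LPS+ cre libraries. Of 20 macrophage markers, 15 were lower and 5 higher in the LPS+ cre libraries (median log2 fold change -0.70). Summed without Lyz2, these markers were at 18422, 17080 and 15258 CPM in the LPS- cre libraries. The same sum was 11880, 11681 and 11448 CPM in the LPS+ cre libraries.

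Of 14234 genes tested, 865 (6.08%) differed by over 2-fold at an adjusted p below 0.01 (edgeR) and are called DEGs. Of these, 345 (2.42%) were higher and 520 (3.65%) lower in the LPS+ cre libraries. The median log2 fold change over all genes tested was 0.03. When libraries were scaled by total count alone, that median moved to 0.37 and the split became 1064 higher and 341 lower. The count depended on the LPS+ cre group, the one with the smaller spread: without LPS+ cre replicate 1, 2 or 3 the edgeR count was 4, 7 or 15, while DESeq2 called 2002 genes with all libraries and 1554, 1589 and 1536 without the same libraries. All 865 DEGs kept their sign in these fits. However, CPM of the groups did not overlap for any DEG (345 of 345 higher and 520 of 520 lower). Leaving out 1 library could thus hardly change a sign, so the kept signs are no added support. Within the lists below, at most 2 edgeR DEGs were left in either direction without any 1 LPS+ cre library.

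For reading the counts below, an edgeR adjusted p below 0.05 at any fold was reached by 26.7% of genes tested (12.5% higher and 14.2% lower), and CPM of the groups did not overlap for 48% (25.5% higher and 22.5% lower). DESeq2 called 14.1% (5.53% higher and 8.54% lower). These shares and the overall median are the background for each list.

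**Figure D2:**
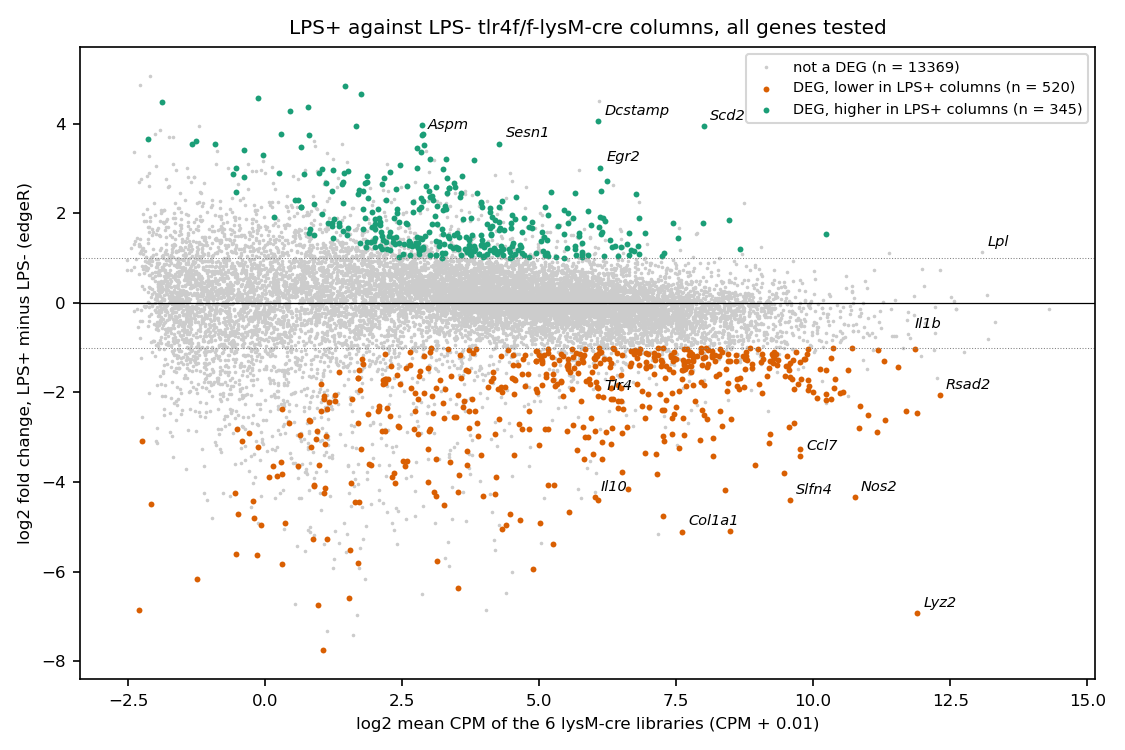
Log2 fold change (LPS+ cre minus LPS- cre, edgeR) of each of 14234 genes tested against its log2 mean CPM in the 6 libraries; coloured points are DEGs and dotted lines mark a 2-fold change. The 520 lower DEGs include Lyz2, Nos2, Slfn4 and Il10, and the 345 higher ones include Scd2, Dcstamp and Egr2.

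Antiviral interferon-stimulated genes were lower in the LPS+ cre libraries. Of 38 tested, 21 were DEGs, all lower, and all 38 had a negative log2 fold change, with a median of -1.27. Summed over the list, their level was 44018 to 60396 CPM in the LPS- cre and 17010 to 19228 CPM in the LPS+ cre libraries, against 1880 to 4795 CPM in the 6 libraries without the cre heading. The LPS+ cre libraries were thus intermediate. With scaling by total count alone, 11 were lower DEGs and 37 values were negative.

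Slfn4, a schlafen family gene of myeloid cells, measured 1435, 1071 and 1846 CPM in the LPS- cre and 69.8, 56.7 and 79.6 CPM in the LPS+ cre libraries. The groups did not overlap, as for every DEG. The fall of Slfn4, 21.1-fold (log2 fold change -4.40, SE 0.28, adjusted p = 0.000881 by edgeR), exceeded that of the other genes of the list. Rsad2, which encodes viperin, an enzyme that makes a chain-terminating nucleotide, measured 6719, 10675 and 7225 CPM in the LPS- cre and 1633, 1876 and 2305 CPM in the LPS+ cre libraries. Rsad2 fell 4.20-fold (log2 fold change -2.07, SE 0.23, adjusted p = 0.00262 by edgeR). Its neighbour Cmpk2, a mitochondrial nucleotide kinase, went from 5109, 9392 and 4829 CPM to 981, 1101 and 1380 CPM. Isg20, an exonuclease, and Oasl1, an oligoadenylate synthetase-like protein that limits Irf7 translation, fell with log2 fold changes of -2.97 (SE 0.27) and -2.77 (SE 0.20). At the other end, Rtp4 (log2 fold change -0.33, adjusted p = 0.0595 by edgeR) and Mx1 (-1.13, adjusted p = 0.128) did not pass.

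The guanylate-binding proteins (GBPs) and immunity-related GTPases, which attack the vacuoles of intracellular microbes, showed the same direction. Of 18 tested, 10 were DEGs, all lower, and 18 had a negative log2 fold change (median -1.38). Gbp4 measured 137, 104 and 75.8 CPM in the LPS- cre and 11.6, 12.1 and 15.4 CPM in the LPS+ cre libraries (log2 fold change -3.0, SE 0.25). Gbp6 went from 601, 579 and 511 CPM to 71.7, 86.2 and 90.2 CPM (log2 fold change -2.76, SE 0.14). Gbp2 did not pass, at 1870, 2897 and 1455 CPM against 1301, 1390 and 1267 CPM (log2 fold change -0.64, SE 0.24, adjusted p = 0.0936 by edgeR). GBP, IRG, schlafen and IFIT genes have near-identical copies, so reads may be split unevenly among them.

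Promoter sequences from RefSeq (GRCm38.p6, 250 bases before to 50 after the start) are shown for genes of both lists, to show the letters before genes that fell together. Gbp3, Gbp5 and Igtp were chosen after their values and letters were seen. Capitals mark a match, on either strand, to a core of the interferon-stimulated response element (GAAA, any 2 bases, GAAA) or to a core of the NF-kB site (GGGA, any base, TTTCC). The first motif is in 943 of 27025 promoters in the table (3.49%) and the second in 104 (0.385%). In Gbp3, overlapping matches to the first motif share capitals.
Slfn4 promoter, chr11:83174936-83175235, plus strand: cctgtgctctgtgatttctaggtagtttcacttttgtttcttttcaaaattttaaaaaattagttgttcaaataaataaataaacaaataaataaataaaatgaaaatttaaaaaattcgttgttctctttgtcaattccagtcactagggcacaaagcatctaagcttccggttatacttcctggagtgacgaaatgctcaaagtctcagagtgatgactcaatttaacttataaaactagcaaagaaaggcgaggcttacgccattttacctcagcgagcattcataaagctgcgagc
Gbp3 promoter, chr3:142559794-142560093, plus strand: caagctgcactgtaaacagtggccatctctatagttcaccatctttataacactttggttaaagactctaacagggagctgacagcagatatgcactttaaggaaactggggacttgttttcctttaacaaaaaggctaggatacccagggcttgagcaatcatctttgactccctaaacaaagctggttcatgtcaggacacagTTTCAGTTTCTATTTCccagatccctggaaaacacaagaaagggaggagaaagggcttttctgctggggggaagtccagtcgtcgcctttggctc
Gbp5 promoter, chr3:142496684-142496983, plus strand: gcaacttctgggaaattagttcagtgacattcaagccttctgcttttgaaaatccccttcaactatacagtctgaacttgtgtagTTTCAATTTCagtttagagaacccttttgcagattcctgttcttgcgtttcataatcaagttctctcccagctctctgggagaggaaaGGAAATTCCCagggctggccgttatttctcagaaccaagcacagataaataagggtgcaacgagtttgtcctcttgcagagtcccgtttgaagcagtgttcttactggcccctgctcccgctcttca
Igtp promoter, chr11:58199306-58199605, plus strand: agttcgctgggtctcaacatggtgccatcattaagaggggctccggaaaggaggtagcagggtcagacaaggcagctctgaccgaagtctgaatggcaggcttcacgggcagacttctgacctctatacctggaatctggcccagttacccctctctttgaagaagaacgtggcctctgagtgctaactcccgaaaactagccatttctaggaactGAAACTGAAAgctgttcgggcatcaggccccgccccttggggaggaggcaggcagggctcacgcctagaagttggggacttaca
The window of Slfn4 holds neither motif, Gbp3 and Igtp hold the first, and Gbp5 holds both. Slfn4 was picked by its size of change among DEGs of the antiviral, cytokine and chemokine lists with a promoter entry. The same rule picked Isg20, Oasl1, Ccl12, Cxcl9 and Edn1, whose sequences are not printed. The windows of Isg20, Oasl1, Ccl12 and Cxcl9 hold neither motif, and that of Edn1 holds 1 match to the first. The printed windows are thus no measure of how common the motifs are. Igtp measured 575, 549 and 522 CPM in the LPS- cre and 204, 209 and 253 CPM in the LPS+ cre libraries (log2 fold change -1.30, SE 0.13). Gbp5 went from 1667, 1890 and 1350 CPM to 527, 603 and 629 CPM (-1.47, SE 0.16) and Gbp3 from 1593, 1416 and 912 CPM to 511, 542 and 570 CPM (-1.26, SE 0.21). A promoter entry matched 10 of the 18 GTPase genes and 368 of the 520 lower DEGs, under 80% in each case, so a share of motifs over these sets is void.

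The interferon beta gene was also lower. Ifnb1, the interferon beta gene, was at 3.78, 3.0 and 4.67 CPM in the LPS- cre and 0.300, 0.469 and 0.511 CPM in the LPS+ cre libraries. The fall was 8.87-fold (log2 fold change -3.15, SE 0.35, adjusted p = 0.00261 by edgeR). Of 18 interferon ligands, receptors and transcription factors tested, 5 were DEGs, all lower: Ifnb1, Irf7, Stat3, Jak2 and Stat2. Irf7, the factor that amplifies interferon genes, went from 1992, 2132 and 1779 CPM to 444, 417 and 442 CPM (log2 fold change -2.17, SE 0.12). The interferon receptor gene Ifnar1 had a log2 fold change of 0.03 (adjusted p = 0.904 by edgeR).

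Cytokine genes were lower in part. Of 25 inflammatory and regulatory cytokines tested, 8 were DEGs, all lower, and 24 had a negative log2 fold change (median -1.95). Il10, the anti-inflammatory cytokine gene, measured 67.2, 131 and 172 CPM in the LPS- cre and 7.21, 5.96 and 5.06 CPM in the LPS+ cre libraries. It fell 20.2-fold (log2 fold change -4.34, SE 0.38, adjusted p = 0.00135 by edgeR). The groups did not overlap, as for every DEG, and the 6 libraries without the cre heading held at most 3.03 CPM. Il1rn, the interleukin 1 receptor antagonist, went from 3603, 4311 and 4290 CPM to 588, 475 and 576 CPM (log2 fold change -2.89, SE 0.16). Tnfsf9, the ligand of the T cell co-stimulator 4-1BB, and Edn1, the vasoconstrictor endothelin 1, fell with log2 fold changes of -3.49 (SE 0.22) and -3.07 (SE 0.39).

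The classical inflammatory cytokines Tnf, Il6 and Il1b did not pass in edgeR. DESeq2 called 15 of the 25 cytokines, all lower. Tnf was at 4990, 1677 and 1487 CPM in the LPS- cre and 1028, 1324 and 992 CPM in the LPS+ cre libraries (log2 fold change -1.28, SE 0.48, adjusted p = 0.093 by edgeR). Il6 was at 1302, 444 and 471 CPM against 161, 248 and 166 CPM (-1.95, SE 0.46, adjusted p = 0.0245). The groups did not overlap for Tnf or Il6. For both genes, as for Il1b, LPS- cre replicate 1 was the highest library of the 6.

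Chemokine genes had the same direction: of 23 tested, 8 were DEGs, all lower, with a median log2 fold change of -1.76. Ccl7, a monocyte attractant, measured 1600, 1598 and 1577 CPM in the LPS- cre and 160, 141 and 143 CPM in the LPS+ cre libraries. It fell 10.7-fold (log2 fold change -3.42, SE 0.12, adjusted p = 0.000219 by edgeR). Ccl2, which recruits monocytes through Ccr2, went from 3177, 2231 and 1492 CPM to 586, 537 and 588 CPM (4.01-fold, SE of the log2 fold change 0.27). Cxcl11, an attractant of Cxcr3-bearing T cells, went from 98.2, 46.0 and 31.1 CPM to 0.555, 0.882 and 1.40 CPM (log2 fold change -5.93, SE 0.59). The neutrophil attractant Cxcl3 was at 1876, 139 and 296 CPM against 695, 897 and 716 CPM, with LPS- cre replicate 1 highest (adjusted p = 0.997 by edgeR), and Ccl9 had a log2 fold change of 0.38 (SE 0.23, adjusted p = 0.259).

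NF-kB subunits and feedback regulators included 14 DEGs among 30 tested, all lower (median log2 fold change -1.10). Socs3, the inhibitor of STAT3 signalling, measured 2174, 2482 and 1621 CPM in the LPS- cre and 470, 463 and 479 CPM in the LPS+ cre libraries (log2 fold change -2.14, SE 0.17). Tnfaip3, the deubiquitinase A20, went from 1954, 1819 and 1491 CPM to 390, 435 and 381 CPM (log2 fold change -2.12, SE 0.15). Marcksl1, a MARCKS-like membrane protein on this list, fell 6.92-fold (log2 fold change -2.79, SE 0.26, adjusted p = 0.00161 by edgeR). Dusp1 and Dusp2, phosphatases of MAP kinases, fell 6.07-fold and 6.81-fold.

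Of 26 genes of the LPS receptor complex, its adaptors and kinases, Tlr4 was the only DEG in edgeR, and 9 were lower at an adjusted p below 0.05 at any fold (median log2 fold change -0.40, and -0.07 with libraries scaled by total count alone). Without LPS- cre replicate 3 the list held 3 lower DEGs, and DESeq2 called 2. Lbp, which carries LPS to CD14, had at most 15 counts in the LPS+ cre libraries and 28, 5 and 83 counts in the LPS- cre libraries. Cd14 was at 5109, 2634 and 2612 CPM in the LPS- cre and 2090, 2155 and 1966 CPM in the LPS+ cre libraries, without overlap, but did not pass (log2 fold change -0.73, SE 0.28, adjusted p = 0.103 by edgeR). Among 11 other genes of the Toll-like receptors and their chaperones, the double-stranded RNA receptor Tlr3 was the only DEG. Tlr3 went from 224, 263 and 226 CPM to 53.5, 57.8 and 62.6 CPM (4.08-fold, log2 fold change -2.03, SE 0.11).

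Nos2, the inducible nitric oxide synthase, showed the same order of groups as the antiviral genes. It measured 2302, 5654 and 1942 CPM in the LPS- cre, 152, 204 and 129 CPM in the LPS+ cre and 0.0374 to 2.74 CPM in the 6 libraries without the cre heading. It was 20.1-fold lower in the LPS+ cre libraries (log2 fold change -4.33, SE 0.47, adjusted p = 0.00249 by edgeR). Of 19 genes for nitric oxide, itaconate, arginine and prostaglandin enzymes tested, 6 were DEGs, all lower (median -1.0). Ptges, the inducible prostaglandin E synthase, went from 1456, 494 and 760 CPM to 72.6, 64.1 and 85.0 CPM, and Ch25h, which makes 25-hydroxycholesterol, from 164, 303 and 200 CPM to 21.9, 27.0 and 15.8 CPM. Acod1, the itaconate-making enzyme, lay just outside the threshold with a 2.13-fold difference and an adjusted p of 0.0103 (edgeR).

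Genes of MHC class I presentation and the immunoproteasome were lower as well, with 11 DEGs of 20 tested, 20 negative values and a median log2 fold change of -1.08. H2-K1, a classical class I heavy chain, measured 3903, 3519 and 3318 CPM in the LPS- cre and 1418, 1480 and 1436 CPM in the LPS+ cre libraries (log2 fold change -1.30). Nlrc5, the transactivator of class I genes, and Tap1, a peptide transporter subunit, fell with log2 fold changes of -1.45 and -1.39. The largest fold changes of the list, in H2-Q6 (-3.38) and H2-Q7 (-2.34), belong to genes with near-identical copies. MHC class II and co-stimulators had 2 DEGs of 16, the co-stimulatory ligand Cd80 and the checkpoint ligand Cd274, both lower (4 lower in DESeq2, and 0 in edgeR with scaling by total count alone). The class II chain genes H2-Ab1, H2-Aa and H2-Eb1 had log2 fold changes of -0.39, 0.04 and 0.12, with adjusted p-values of 0.173, 0.961 and 0.735 (edgeR).

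**Figure D3:**
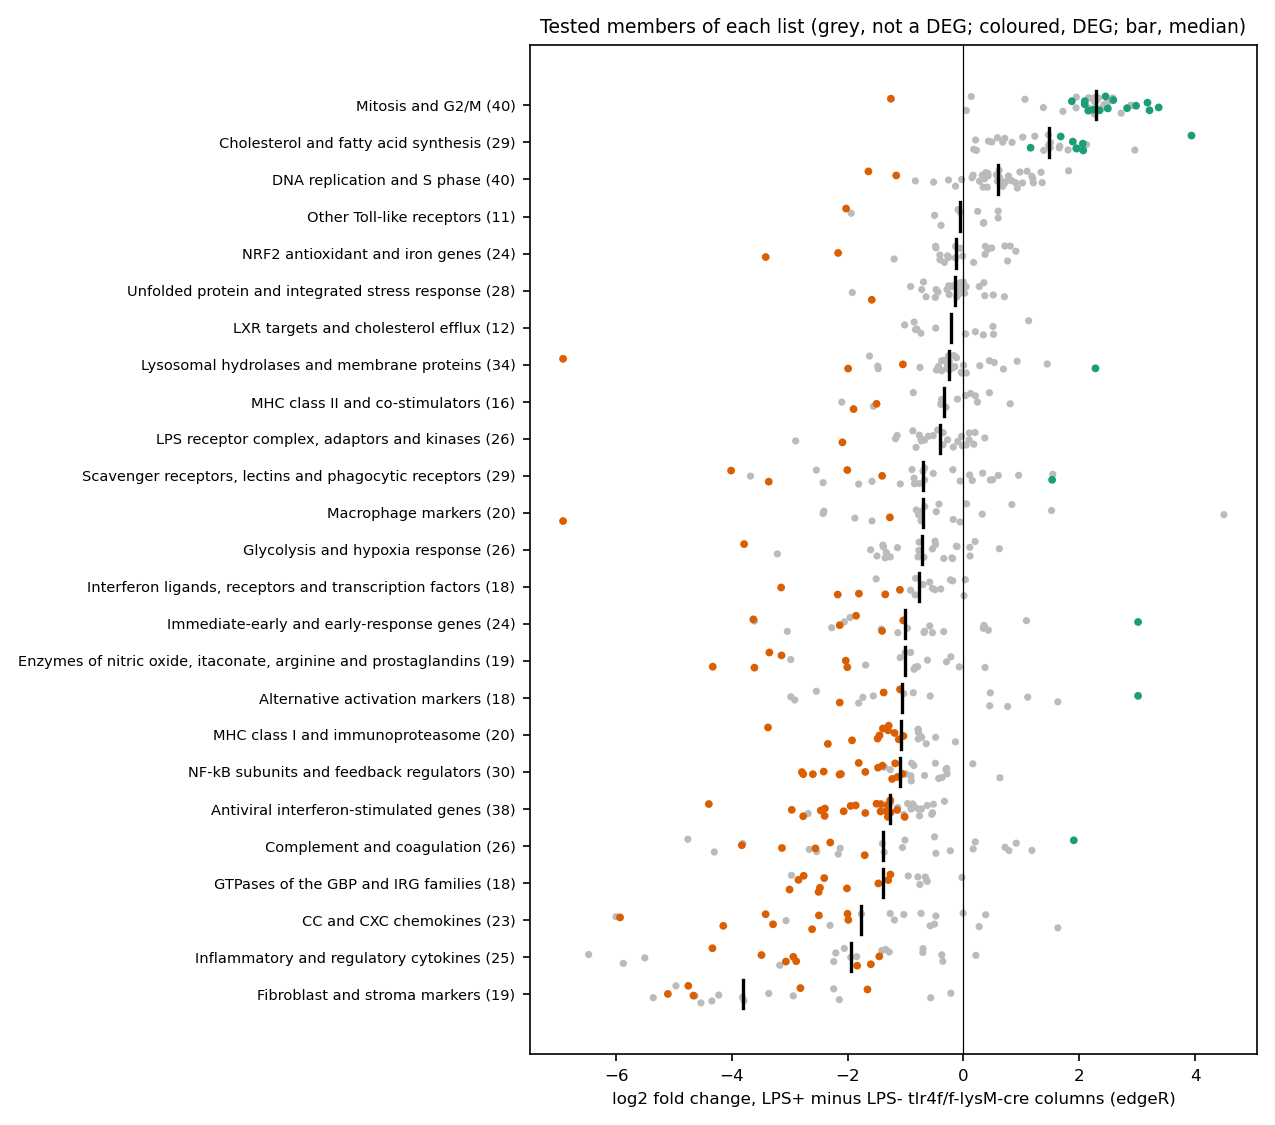
Log2 fold change (LPS+ cre minus LPS- cre, edgeR) of each tested member of 25 gene lists, ordered by median (bars); coloured points are DEGs and the number of members tested stands beside each name. Mitosis and cholesterol synthesis lie to the right with medians of 2.29 and 1.47, and antiviral genes, GTPases, chemokines and cytokines to the left with medians from -1.27 to -1.95, with stroma markers farthest left at -3.82.

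Genes of mitosis ran in the opposite direction and were higher in the LPS+ cre libraries. Of 40 tested, 14 were DEGs higher and 1 lower, 39 had a positive log2 fold change, and the median was 2.29. Their summed level was 238 to 521 CPM in the LPS- cre and 992 to 1381 CPM in the LPS+ cre libraries, while it was 402 to 1486 CPM in the libraries headed LPS- and 2413 to 2755 CPM in those headed LPS+ among the tlr4f/f libraries. The LPS- tlr4f/f range overlapped both cre-headed groups. The 14 higher DEGs became 16, 10 or 32 without LPS- cre replicate 1, 2 or 3, 30 with scaling by total count alone and 35 in DESeq2. Kif23, a kinesin of the cytokinetic furrow, measured 1.64, 1.47 and 0.716 CPM in the LPS- cre and 11.4, 11.7 and 16.3 CPM in the LPS+ cre libraries. It rose 10.4-fold (log2 fold change 3.37, SE 0.34, adjusted p = 0.00208 by edgeR). Cenpf, a kinetochore protein, went from 2.82, 1.81 and 1.09 CPM to 13.4, 16.6 and 23.1 CPM (9.29-fold), and Anln, the furrow scaffold anillin, from 5.02, 2.35 and 0.996 CPM to 21.0, 22.6 and 32.1 CPM (9.06-fold). Aspm, a spindle pole protein, rose 13.4-fold, from 1.64, 0.782 and 0.591 CPM to 10.4, 12.9 and 17.1 CPM. Pttg1, which encodes securin, was the exception and fell 2.38-fold, from 59.2, 81.8 and 53.1 CPM to 25.7, 27.8 and 27.2 CPM.

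Of 40 tested genes of DNA replication, no gene was a DEG in the higher direction and 2 were lower, with a median log2 fold change of 0.60. The difference from the mitosis list was not tested. In the higher direction, DESeq2 called 5 genes, and 18 reached 0.05 in edgeR before adjustment and 10 after it. The lower ones were Ccne1, which encodes the G1/S cyclin E1 (12.8, 15.5 and 19.1 CPM against 5.08, 5.05 and 5.02 CPM), and Cdt1, which licenses replication origins (38.9, 53.6 and 40.7 CPM against 21.4, 18.2 and 19.5 CPM). Pcna, the polymerase clamp, was at 256, 363 and 311 CPM against 254, 258 and 260 CPM (log2 fold change -0.26, SE 0.14, adjusted p = 0.208 by edgeR).

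Lipid synthesis genes were higher in the LPS+ cre libraries. Of 29 tested genes of cholesterol and fatty acid synthesis, 8 were DEGs, all higher, and all 29 values were positive (median log2 fold change 1.47). Without LPS- cre replicate 1, 2 or 3, the count was 4, 12 or 14, and DESeq2 called 19. Scd2, a stearoyl-CoA desaturase that makes monounsaturated fatty acids, measured 35.3, 33.3 and 26.2 CPM in the LPS- cre and 448, 403 and 596 CPM in the LPS+ cre libraries. It rose 15.3-fold (log2 fold change 3.94, SE 0.21, adjusted p = 0.000682 by edgeR). Its relative Scd1 went from 9.47, 17.3 and 24.3 CPM to 62.7, 63.0 and 86.5 CPM, and the sterol enzyme Dhcr7 from 2.90, 4.88 and 3.17 CPM to 15, 15 and 15.5 CPM. The transcription factors that drive the pathway, Srebf1 and Srebf2, had log2 fold changes of 0.18 (adjusted p = 0.437 by edgeR) and 0.49 (adjusted p = 0.238). Of 12 targets of the LXR receptors and efflux genes, none was a DEG in edgeR and 1 was in DESeq2, and 4 higher and 5 lower values had an unadjusted edgeR p below 0.05.

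Other higher DEGs with a large change were Dcstamp, Egr2, Sesn1 and Cnr2. Dcstamp, a membrane protein needed for fusion of osteoclasts and giant cells, measured 7.59, 8.91 and 6.60 CPM in the LPS- cre and 123, 114 and 143 CPM in the LPS+ cre libraries. It rose 16.6-fold (log2 fold change 4.05, SE 0.16, adjusted p = 0.000255 by edgeR). Egr2, a zinc finger factor of alternatively activated macrophages, went from 18.8, 11.7 and 15.4 CPM to 114, 121 and 136 CPM (8.10-fold, log2 fold change 3.02, SE 0.21). Sesn1, a leucine sensor that restrains mTORC1, went from 2.55, 2.60 and 3.98 CPM to 35.8, 34.4 and 36.4 CPM (11.7-fold). Cnr2, the peripheral cannabinoid receptor, went from 0.268, 0.219 and 0.280 CPM to 2.70, 2.67 and 3.26 CPM (11.2-fold). Both groups of Dcstamp, Egr2, Sesn1 and Cnr2 were narrow. Each LPS+ cre library was above each LPS- cre library, as for every higher DEG.

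**Figure D4:**
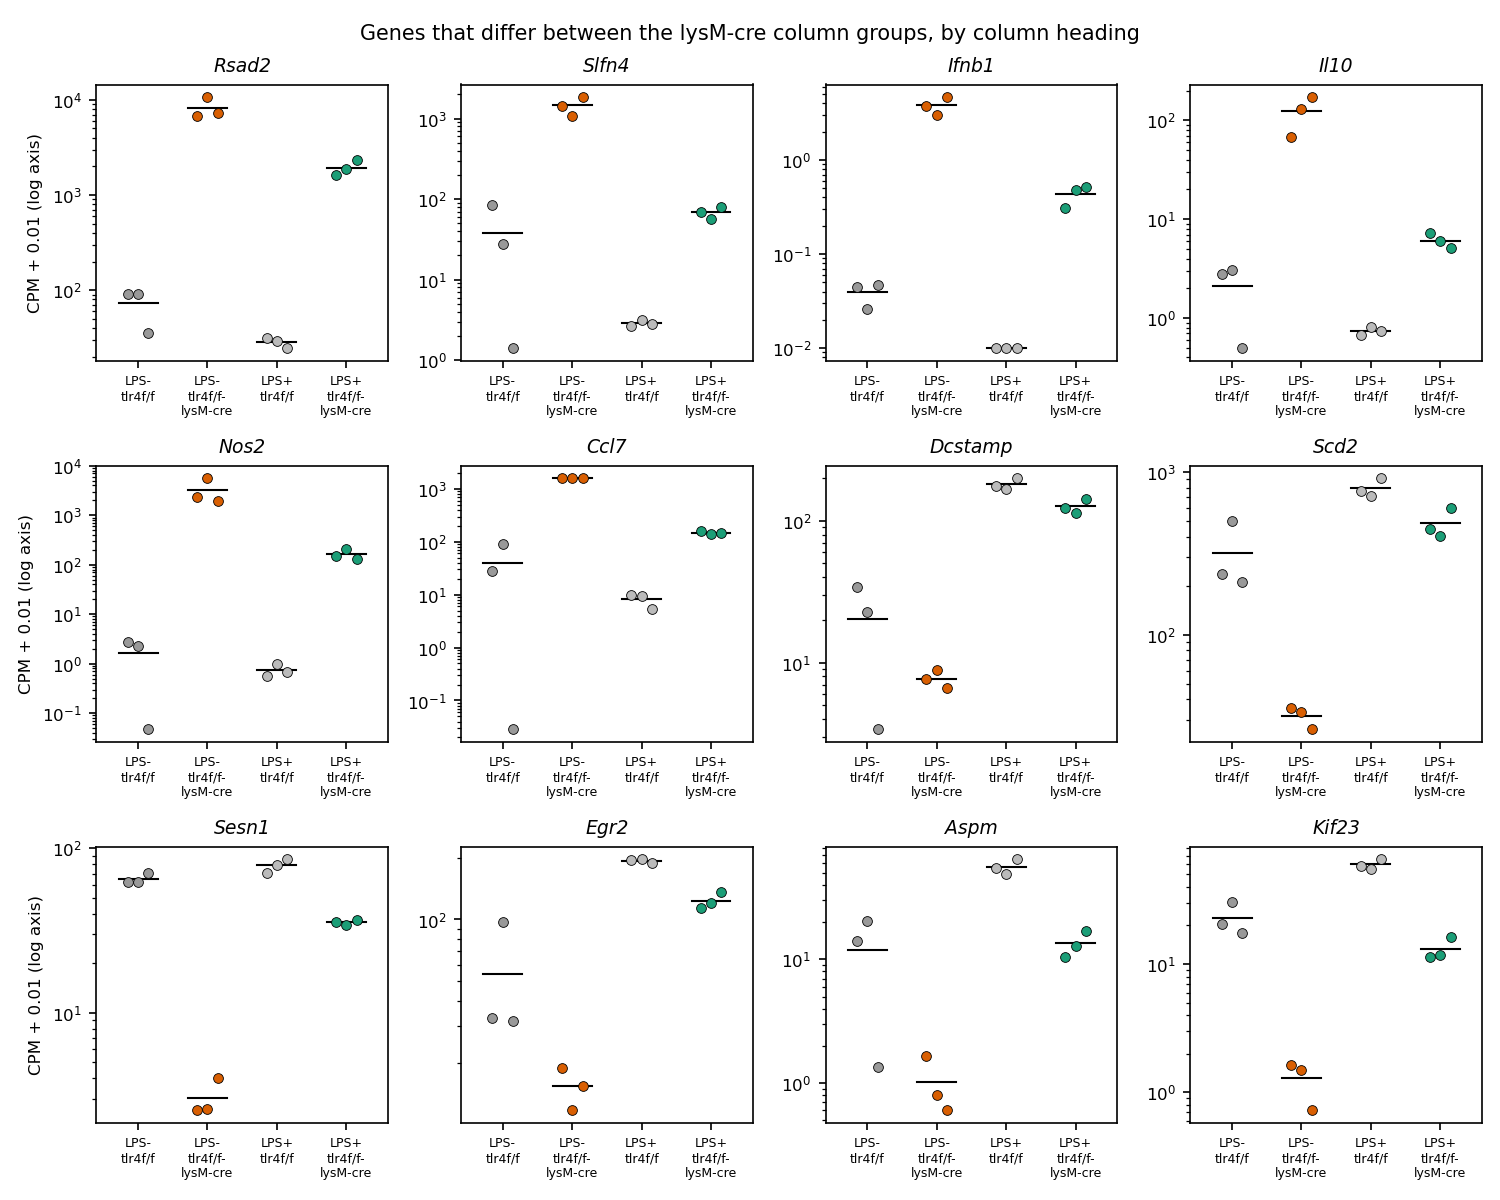
CPM (plus 0.01, log axis) of 12 genes in the 12 libraries by column heading; points are libraries and bars are means of 3. Rsad2, Slfn4, Ifnb1, Il10, Nos2 and Ccl7 were highest in the LPS- cre libraries, and Dcstamp, Scd2, Sesn1, Egr2, Aspm and Kif23 were lower in each LPS- cre than in each LPS+ cre library.

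Further large rises had low levels. Ryr1, the skeletal muscle calcium release channel, went from 0.0268, 0.406 and 0.342 CPM to 6.56, 6.84 and 5.91 CPM (25.3-fold), and the DNA helicase Pif1 from 0.429, 0.0313 and 0.0622 CPM to 4.09, 4.99 and 6.73 CPM (28.7-fold). F2rl2, a protease-activated receptor, rose 19.5-fold, Depdc1a, a mitotic gene, 20.7-fold, Kcne3, a potassium channel subunit, 23.9-fold, Tacc2, a centrosomal protein, 15.6-fold, and Zfp704, a zinc finger protein, 11.5-fold. Cdcp1, a transmembrane protein of epithelia, rose 11.6-fold to at most 1.16 CPM. Olfr461, an olfactory receptor gene, and Igf1os, a transcript antisense to Igf1 that cannot be told from it if counting ignored strand, had at most 3 counts in each LPS- cre library, so no fold is given for them.

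Macrophage polarization and receptor lists had DEGs in both directions, with most values lower in the LPS+ cre libraries. Among 18 alternative activation markers, Egr2 was higher and Klf4, Il4ra and Tgm2 were lower as DEGs. Of these markers, 12 had a negative and 6 a positive log2 fold change (median -1.06), and DESeq2 called 7 lower and 1 higher. Mrc1, the mannose receptor CD206, was at 50.1, 307 and 302 CPM in the LPS- cre and 58.6, 76.0 and 52.0 CPM in the LPS+ cre libraries. LPS- cre replicate 1 lay below the LPS+ cre libraries, and Mrc1 did not pass (log2 fold change -1.81, SE 0.62, adjusted p = 0.0727 by edgeR). Of 29 scavenger, lectin and phagocytic receptors, the inhibitory receptor Cd300a was higher and 4 were lower: Cd300lf, the activating Fc receptor Fcgr4, the inhibitory Fc receptor Fcgr2b and the efferocytosis ligand Gas6. In this list 20 values were negative and 9 positive (median log2 fold change -0.70), and DESeq2 called 8 lower and 2 higher. Fcgr4 went from 159, 344 and 264 CPM to 23.8, 25.8 and 24.3 CPM (10.3-fold).

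Of 34 lysosomal genes tested, 3 were lower and 1 higher, with 7 lower without LPS- cre replicate 1 and 1 without replicate 2. The lower ones were Lyz2, the serine protease activator Ctsc and progranulin (Grn), and the higher one was Lyz1. Lyz1, the neighbouring lysozyme gene with a near-identical sequence (chr10:117287797-117292868), rose from 3.62, 9.25 and 7.87 CPM to 32.1, 33.9 and 33.9 CPM (4.86-fold). Reads of Lyz1 and Lyz2 may not be fully separable. Ctsb, a cathepsin, was at 7759, 15303 and 12198 CPM against 8649, 9120 and 8138 CPM, with overlap (adjusted p = 0.234 by edgeR).

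Complement and coagulation genes had 5 lower and 1 higher DEG of 26 in edgeR, and 12 lower and 1 higher in DESeq2. Of the 26 values, 19 were negative and 7 positive (median log2 fold change -1.38). Cfb, factor B of the alternative pathway, went from 745, 1350 and 1057 CPM to 104, 124 and 127 CPM (8.79-fold), and C3, the central component, from 4008, 3823 and 1466 CPM to 701, 615 and 552 CPM (4.93-fold). Plau, the urokinase-type plasminogen activator, rose 3.75-fold, from 15.8, 39.6 and 32.4 CPM to 118, 100 and 109 CPM. C1qa, C1qb and C1qc did not pass (adjusted p = 0.287, 0.595 and 0.414 by edgeR), and all 3 had their lowest level of the 6 libraries in LPS- cre replicate 1.

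Among 24 immediate-early genes, 5 were lower DEGs in edgeR (Nr4a1, Klf4, Fosl2, Junb and Klf6) and Egr2 was higher. The lower ones became 10 without LPS- cre replicate 2, and DESeq2 called 12 lower and 2 higher. In this list 18 values were negative and 6 positive (median log2 fold change -1.0). In glycolysis and hypoxia genes, Pfkfb3, the kinase that makes the activator of phosphofructokinase, was the single edgeR DEG of 26, with 5 without LPS- cre replicate 2, 3 without replicate 3 and 8 in DESeq2. Pfkfb3 went from 632, 1879 and 1428 CPM to 99.1, 83.4 and 99.8 CPM (13.8-fold). Iron and NRF2 genes had 2 lower DEGs of 24, the siderophore binder Lcn2 (732, 387 and 472 CPM against 56.9, 50.5 and 41.4 CPM) and ceruloplasmin, Cp (258, 279 and 248 CPM against 60.9, 59.9 and 53.1 CPM). Of 28 genes of the unfolded protein and stress response, Ddit3, the factor CHOP, was the only DEG, from 28.9, 35.5 and 52.0 CPM to 15.3, 12.6 and 10.9 CPM.

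Markers of stroma differed between the groups and also between libraries of 1 heading. All 19 tested of 20 fibroblast and stroma markers had a negative log2 fold change (median -3.82) and 5 were DEGs: Col1a1, Col1a2, Col6a1, Fbn1 and Pdgfrb. Col1a1, the type I collagen chain, measured 466, 59.7 and 609 CPM in the LPS- cre and 13.8, 10.6 and 8.77 CPM in the LPS+ cre libraries. Summed over the list without Vim, which macrophages also express, the level was 1592, 295 and 2402 CPM in the LPS- cre and 94.0, 85.2 and 74.3 CPM in the LPS+ cre libraries. The same sum was 1056, 100 and 17.8 CPM in the LPS- tlr4f/f and 45.5, 35.3 and 38.7 CPM in the LPS+ tlr4f/f libraries. No stroma marker was at 0 in all 6 libraries. Without LPS- cre replicate 1, 2 or 3 the list held 2, 15 or 2 lower DEGs, and DESeq2 called 17.

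Several of the largest falls followed the stroma markers over the LPS- cre libraries, with replicate 2 lowest. Aebp1, a protein of the extracellular matrix, measured 76.0, 10.8 and 136 CPM in the LPS- cre and 1.59, 1.32 and 2.44 CPM in the LPS+ cre libraries (41.5-fold, log2 fold change -5.38, SE 0.94). Islr, an immunoglobulin-like repeat protein of mesenchymal cells, measured 4.18, 0.750 and 5.79 CPM against 0.0693, 0.138 and 0.0666 CPM. Irx3 and Ptk7, a homeobox factor and a Wnt pathway receptor, were at most 3 counts in each LPS+ cre library and at 2.57, 0.532 and 4.17 CPM and 5.47, 0.657 and 5.41 CPM in the LPS- cre libraries. The part of stroma cells in these differences was not tested, and fewer cells of a type and less RNA per cell cannot be told apart in bulk RNA.

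**Figure D5:**
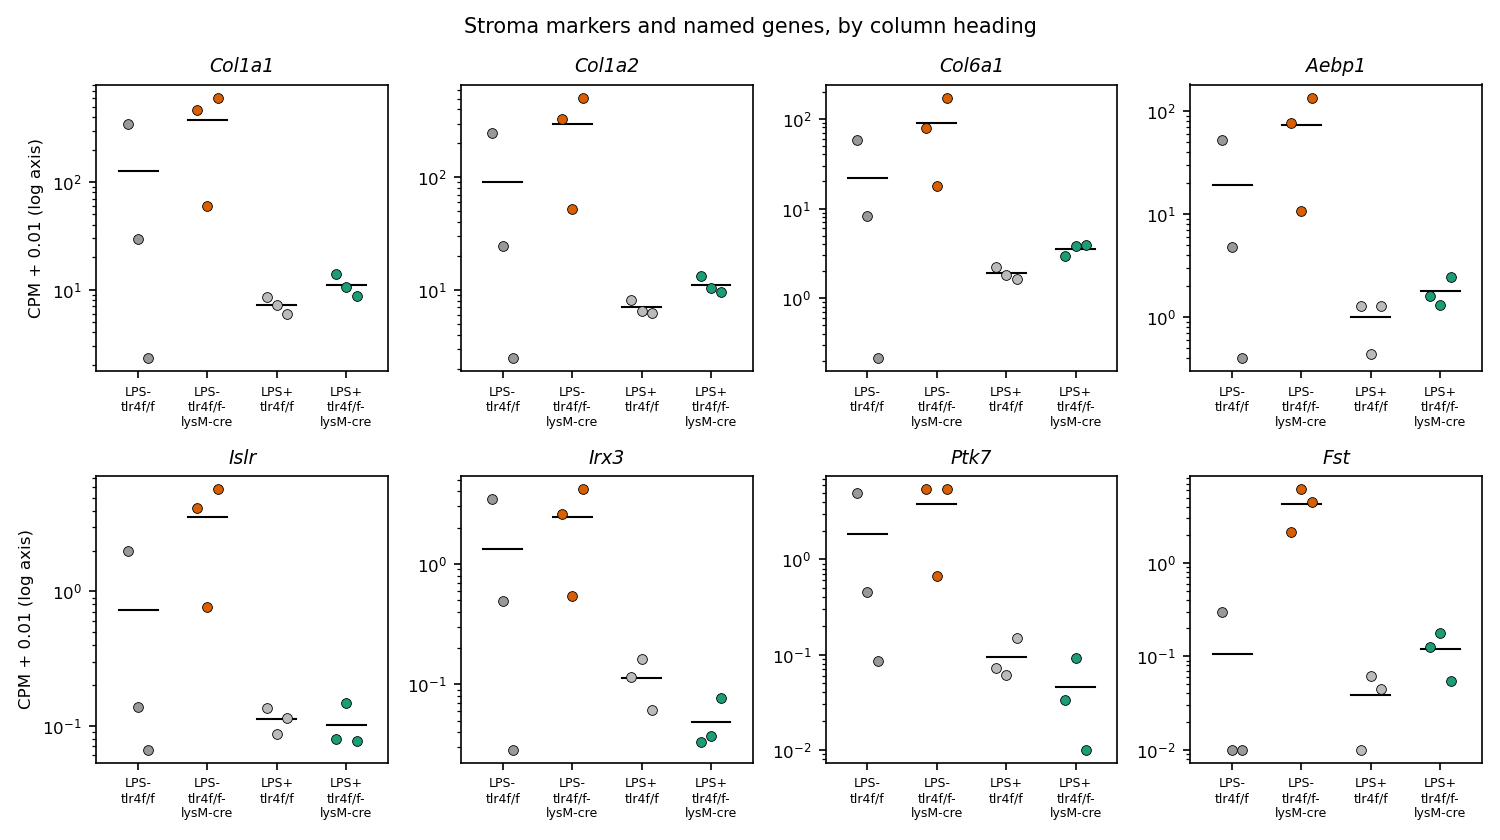
CPM (plus 0.01, log axis) of stroma markers and of named genes in the 12 libraries by column heading; points are libraries and bars are means of 3. In the LPS- cre libraries Col1a1, Col1a2, Col6a1, Aebp1, Islr, Irx3 and Ptk7 were lowest in replicate 2, whereas Fst was highest there.

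The other large falls differed in which LPS- cre replicate was lowest. U90926, a gene with a transcript of unclear coding, went from 21.8, 13 and 33.4 CPM to 0.324, 0.248 and 0.244 CPM (82.5-fold, log2 fold change -6.37, SE 0.46, adjusted p = 0.00105 by edgeR). Slamf1, a self-ligand receptor of immune cells, went from 5.71, 21.2 and 24.6 CPM to 0.439, 0.441 and 0.0666 CPM (54.5-fold). Asap3, an Arf GTPase-activating protein, went from 4.02, 9.29 and 3.77 CPM to 0.116, 0.110 and 0.133 CPM (45.5-fold), and Fst, the activin inhibitor follistatin, from 2.15, 6.16 and 4.45 CPM to 0.116, 0.165 and 0.0444 CPM (38.5-fold). Fam26e had no count in the LPS+ cre libraries and 0.375, 0.406 and 0.373 CPM in the LPS- cre libraries, and was at least 5.28-fold lower against a floor of 3 counts per library. Tex15 and Cachd1 had at most 3 counts in each LPS+ cre library. The decoy receptors Tnfrsf23 and Tnfrsf26, at 2.35 to 9.12 CPM in the LPS- cre libraries, were at or below 0.267 CPM in the LPS+ cre libraries.

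Markers of other cell types varied in level. Of 17 lymphocyte markers, 11 had at most 10 counts in all 6 libraries, and Cd3d and Cd3e had at most 2. Of 17 neutrophil markers, 8 were tested, and 7 of these had a negative log2 fold change (median -1.85). None was a DEG in edgeR (4 had an unadjusted p below 0.05, and DESeq2 called 3, all lower), and Ly6g had at most 1 count. S100a8 reached 125 CPM in LPS- cre replicate 3 and 3.21 to 4.80 CPM in the LPS+ cre libraries. Of 14 erythroid markers, 4 were at 0 in all 6 libraries, and of 14 mast cell and basophil markers 5 were. Some members of these lists were abundant: Mmp9 had up to 24414 counts, Csf3r up to 10376, and the histidine decarboxylase gene Hdc 8734, 3267 and 883 counts in the LPS- cre and 736, 552 and 860 counts in the LPS+ cre libraries. Summed neutrophil markers, with the abundant Mmp9 and Csf3r included, were at 394 to 788 CPM in the LPS- cre and 461 to 493 CPM in the LPS+ cre libraries. This sum therefore does not show the lower values of the other markers. Summed dendritic cell markers were at 1245 to 1635 CPM in the LPS- cre and 1185 to 1211 CPM in the LPS+ cre libraries. The part of such cells in the results was not tested. Among 9 dendritic cell markers tested, Fscn1 and Bst2 were lower DEGs and Flt3 had at most 2 counts, while Itgax, the CD11c integrin, was at 51.3, 261 and 147 CPM against 690, 714 and 711 CPM (adjusted p = 0.023 by edgeR). Of 20 macrophage markers, Lyz2 and Cebpb were lower DEGs, while DESeq2 called 2 higher and 5 lower and edgeR without LPS- cre replicate 1 called 1 higher and 5 lower.

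The libraries without the cre heading lay mostly beyond the LPS+ cre libraries. Of the 520 lower DEGs, the mean of the LPS+ tlr4f/f libraries was below both cre-headed means in 422 (81.2%) and that of the LPS- tlr4f/f libraries in 370 (71.2%). Of the 345 higher DEGs, the LPS+ tlr4f/f mean was above both in 280 (81.2%) and the LPS- tlr4f/f mean in 189 (54.8%). The LPS+ cre libraries were thus between the LPS- cre libraries and the libraries headed LPS+ tlr4f/f for most DEGs, under either reading of the headings.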

How the data were processed

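Bone marrow-derived macrophage RNA was sequenced in 12 libraries, 3 for each of 4 headings. The labels name both rRNA removal and polyA RNA-seq. Per the submitters' notes and the paper's methods, reads were trimmed with Trimmomatic 0.36, aligned to mm10 with HISAT2 and counted with HTSeq. The deposited values are raw counts for 115140 transcript rows, without normalization by the authors. Strand use in counting is not given in the sources used here.

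For each of 43131 genes the transcript row with the highest total was kept, since rows of a gene can hold the same reads. Of 7596 Ensembl gene IDs, 7551 matched a symbol. The 6 cre-headed libraries (38274326 to 51054086 counts each) were tested by the robust quasi-likelihood method of edgeR 4.0.16 under R 4.3.3, after filterByExpr and TMM scaling, with Benjamini-Hochberg adjustment. A DEG passed both an adjusted p of 0.01 and a 2-fold change. Printed CPM use 1 TMM scaling of all 12 libraries. DESeq2 1.42.0 and limma 3.58.1 (voom) were alternatives, with other scalings, filters, samples and transcript sums. Leave-one-out fits with DESeq2 were added after seeing the data. On counts simulated for this comparison with 200 of 14234 genes changed by a log2 fold change of 2, edgeR recovered 76.0% with 1 false call and DESeq2 93.0% with 25. The simulation gave each gene the same spread in both groups, and changed only genes with a mean above 1 CPM. The real groups differed in spread (40.3% in the LPS- cre and 8.94% in the LPS+ cre libraries). The simulated shares therefore do not measure recovery or false calls in these data.

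Named genes were Tlr4, Lyz2, Il1b, Nos2, Ccl2, Il10 and Mrc1, the 15 largest rises and falls among non-overlapping DEGs with at least 10 counts per library where they were higher, and per list up to 3 DEGs each way and the most abundant member. Members of the lists that illustrate a result, such as Tnf, Il6, Socs3, Tnfaip3, Cmpk2, H2-K1 and the C1q genes, were named after their values were seen. The comparison, the lists and the named genes were chosen with earlier results of these data known. Gene coordinates are from GENCODE vM21 (GRCm38). The values of 1 gene selected by the rule for named genes are not reported here.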

Additional observations from a re-analysis of the deposited data

How the results depend on the processing

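The count of 865 DEGs (345 higher, 520 lower) varied with the processing. It was 2002 (787 higher, 1215 lower) in DESeq2, 1405 (1064 and 341) with scaling by total count alone, and 1983 (876 and 1107) at an adjusted p below 0.05, and fitting all 12 libraries raised the higher DEGs to 571. Leaving out 1 library gave 4 to 1178 DEGs in edgeR (1 to 532 higher, 3 to 729 lower) and 1536 to 2274 in DESeq2 (489 to 1039 higher, 1010 to 1385 lower, added after seeing the data). The 3 lowest edgeR counts, 4, 7 and 15, came without LPS+ cre replicates 1, 2 and 3; the cause was not tested. With voom weights, other filters, RLE factors and transcript sums the total lay between 691 and 1018.

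Samples share only a replicate number: residuals of same-numbered libraries correlated at -0.06, 0.12 and -0.06, and not every library correlated best with its own number. A replicate block gave 216 DEGs (52 higher, 164 lower).

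Some genes without a DEG call changed sign (log2 fold changes). Leaving out 1 library in edgeR or DESeq2, Il1b ranged from -1.12 to 0.21, Tnfaip2 from -0.62 to 0.063, Pkm from -0.44 to 0.051, Mmp9 from -0.27 to 1.58, Car2 from -0.22 to 0.71 and Gata2 from -0.32 to 2.40; edgeR alone gave lows of -1.08, -0.59, -0.41, -0.24, -0.20 and -0.28. The positive ends for Il1b, Tnfaip2 and Pkm and the negative ones for Car2 came without LPS- cre replicate 1, that of Mmp9 without replicate 2, and Gata2 was negative without either. Scaled by total count alone, Tnfaip2 (0.080), Pcna (0.086), Pkm (0.16) and Fth1 (0.21) were positive. That scaling also moved the list medians of LXR targets (0.12), lysosomal genes (0.10), other Toll-like receptors (0.29), NRF2 and iron genes (0.24) and the unfolded protein response (0.20) above 0. The depth of these libraries limits genes with few counts, for which a fold is a bound or is not given.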

Other observations

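Gene families taken by symbol, chosen after the data were seen, differed in how many members were DEGs. Cytosolic ribosomal proteins (83 tested) had no DEG in edgeR and a median log2 fold change of -0.02, with 1 member at an unadjusted p below 0.05. Subunits of NADH dehydrogenase (36 tested, median 0.13) and of ATP synthase (17 tested, median 0.046) had none either, with 7 and 1 members at an unadjusted p below 0.05. Of 35 kinesins, 8 were DEGs, all higher in the LPS+ cre libraries (median 0.85), and of 19 centromere proteins 3 were. Of 26 collagens, 7 were DEGs, all lower (median -2.49), which include the stroma markers above. Zinc finger genes named Zfp had 222 of 310 values above 0 (median 0.33), with 5 higher and 6 lower DEGs. Over all genes tested the median was 0.03, and 2.42% were higher and 3.65% lower DEGs.

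Cx3cr1, the fractalkine receptor, had a large value without a call. It was at 13.7, 3.22 and 0.467 CPM in the LPS- cre and 147, 96.4 and 151 CPM in the LPS+ cre libraries (log2 fold change 4.50, SE 1.01, adjusted p = 0.0204 by edgeR), without overlap. Lif, a cytokine of the interleukin 6 family, was at 60.9, 3.06 and 60.7 CPM against 0.485, 0.524 and 0.400 CPM and also had no call (log2 fold change -6.47, adjusted p = 0.0108 by edgeR). As for Col1a1, LPS- cre replicate 2 was the lowest of its group, and the part of stroma cells was not tested.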
